A study of Homo sapiens with 5 samples.

Results

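The genes described here are interleukin 11 (IL11) and 9 further members of the interleukin 6 (IL6) cytokine axis: the ligands IL6, LIF and CLCF1, the receptor chains IL6R, IL6ST, LIFR and OSMR, the transcription factor STAT3 and the inhibitor SOCS3. They were measured in MDA-MB-231, an established human breast cancer line of basal type without estrogen receptor. All probes annotated with one of these 10 symbols were taken. Of the members, 9 had at least 1 probe and 8 had a probe detected (detection p under 0.05) on 2 or more of the 4 independent arrays, which gave 13 probes kept of 15, among 21986 kept of 47231 in the whole table. Probes were thus selected on their detection p, and IL11 was chosen by its fall with fluvastatin on these same arrays, so its values are given as a description without a test.

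The cells were untreated but for sterile water (mock control) or received 10 µM fluvastatin, a statin that blocks the mevalonate pathway, in both cases for 24 h in medium with foetal bovine serum. Labels list 3 controls and 2 fluvastatin samples and do not say whether these were separate cultures. The p-values thus rest on the spread between these samples, which may be technical. For the fluvastatin samples the treatment text repeats that of the mock control, and the groups were taken from titles and characteristics. The column of control replicate 2 equalled the mean of control replicates 1 and 3 in 47231 of 47231 probes and was left out, so 2 control arrays were compared with 2 fluvastatin arrays.

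Cytokines of this family signal through receptor complexes that share the chain IL6ST, also called gp130. IL11 and IL6 first bind a receptor chain of their own (IL6R for IL6), while LIF uses IL6ST together with LIFR, and oncostatin M uses IL6ST with OSMR. The bound complex activates Janus kinases, which phosphorylate STAT3, and STAT3 induces SOCS3, which in turn inhibits the signal. In breast cancer IL11 is known as a factor that tumour cells release in bone, where it favours bone resorption by osteoclasts.

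The promoters of IL11 and IL6 are shown because these 2 ligands did not move alike, and because the IL11 promoter is known to respond to AP-1, the dimeric factor of FOS and JUN proteins whose genes are described further on. Both run 5′ to 3′ on the coding strand and end at the base before the gene start, with any match to the AP-1 motif TGANTCA in capitals (RefSeq, GRCh38.p14). IL11 lies on the minus strand (chr19:55370464-55370713) and IL6 on the plus strand (chr7:22726950-22727199).
IL11: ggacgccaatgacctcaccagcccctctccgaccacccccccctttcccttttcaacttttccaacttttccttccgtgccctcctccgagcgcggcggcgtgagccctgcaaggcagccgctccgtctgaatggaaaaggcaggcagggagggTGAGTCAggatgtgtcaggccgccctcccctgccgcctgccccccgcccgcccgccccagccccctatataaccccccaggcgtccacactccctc
IL6: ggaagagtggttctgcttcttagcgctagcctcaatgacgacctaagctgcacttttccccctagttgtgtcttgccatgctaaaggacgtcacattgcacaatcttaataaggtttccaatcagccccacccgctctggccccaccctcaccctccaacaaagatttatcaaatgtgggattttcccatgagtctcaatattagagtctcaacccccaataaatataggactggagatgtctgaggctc
The IL11 window of 250 bases held 1 match, TGAGTCA, from 96 to 90 bases before the gene start, and the IL6 window held 0. Bases further upstream were not searched, so a match of IL6 or another member beyond its window would not be seen here. Such a match was present in 6.57% of the 35116 promoter windows of this length in the table. Of the members, 8 had 11 promoters there, and IL11 was the 1 gene among them with an AP-1 match. The STAT motif TTCNNNGAA, present in 6.57% of all windows, was found in LIFR promoters, from 165 to 157 bases before 1 start and from 182 to 174 before another. Both motifs read the same on either strand and do not overlap each other here. A match describes letters and is not a measured binding site.

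The line was checked against marker genes. VIM, EGFR, CD44, MSN and CAV1, typical of basal and mesenchymal breast lines, were detected on all 4 arrays. ESR1, PGR, FOXA1 and CDH1, typical of luminal cells, were detected on 0 arrays, whereas ERBB2 was detected on 4. Of the 3 leukocyte markers with a probe, PTPRC and CD3E were detected on 0 arrays and CD14 on 4. The endothelial markers CDH5 and VWF were detected on 0 arrays, and PECAM1 had log2 intensities of 5.01 and 4.74 in controls and 6.60 and 5.54 with fluvastatin. Of the hepatocyte markers, ALB was detected on 4 arrays and APOA1 on 1. Summarised as mean log2 intensity, the leukocyte list ran from 5.56 to 5.64 in controls and from 5.36 to 5.58 with fluvastatin, the endothelial list from 4.52 to 4.52 and from 4.71 to 5.04, and the hepatocyte list from 6.14 to 6.16 and from 5.86 to 6.50. Their part in the results was not tested.

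Among the 3 measured ligands, IL11 was the one with a large change. Its single probe read 1040.7 and 696.7 intensity units in control replicates 1 and 3, and 154.4 and 167.2 in fluvastatin replicates 1 and 2. After background correction and quantile normalization, the log2 intensity was 9.93 on the first control array, 9.78 on the other, and 6.45 and 6.68 on the treated arrays. Both controls were high, both fluvastatin arrays were low, and the groups did not overlap. The probe was still detected on both fluvastatin arrays.

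The mean of IL11 went from 9.85 ± 0.10 to 6.56 ± 0.16 (SD, n = 2 per group). This is a log2 fold change of -3.29 with a moderated standard error of 0.17, or 9.78-fold lower. By this value IL11 stood 6th from the lowest of 12080 genes, 0.0497% of them at or below it, while the median gene was at 0.01 and the 5th percentile at -0.98. The ratio of the mean intensities as deposited was 5.40, and without background correction the log2 fold change after quantile normalization was -2.74. In the authors' log2 values the probe read 9.79 and 9.65 in controls and 6.98 and 7.12 with fluvastatin, a log2 fold change of -2.67. In RNA from whole cultures, fewer cells expressing a gene and less RNA per cell cannot be told apart.

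IL6, the founding cytokine of the family, did not follow IL11. Its log2 intensity was 11.31 and 11.29 in controls, 12.21 in fluvastatin replicate 1 and 11.09 in fluvastatin replicate 2. One fluvastatin array was thus above both controls and the other below them. The log2 fold change was 0.35 ± 0.36 (SE, 95% confidence interval -0.55 to 1.25, limma adjusted p = 0.532), which did not pass. The fluvastatin arrays lay 1.12 apart on the log2 scale, against 0.023 between the controls and a median of 0.25 between fluvastatin arrays over all probes kept, and 1.71% of the probes kept had fluvastatin arrays at least this far apart. Without fluvastatin replicate 1 the log2 fold change was -0.21, and without fluvastatin replicate 2 it was 0.91. Each of these fits keeps 1 fluvastatin array, whose spread cannot be measured, so no p is given.

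LIF, which maintains stem cells in culture and acts through LIFR and IL6ST, had log2 intensities of 6.69 and 6.73 in controls and 6.85 and 6.69 with fluvastatin. The values of the groups interleaved. Its log2 fold change was 0.06 ± 0.16 (95% confidence interval -0.32 to 0.45, limma adjusted p = 0.798), so a change of the size of IL11's lies outside the interval. CLCF1, a ligand of the ciliary neurotrophic factor receptor, had no probe with this symbol in the annotation used and was not analysed here.

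**Figure D1:**
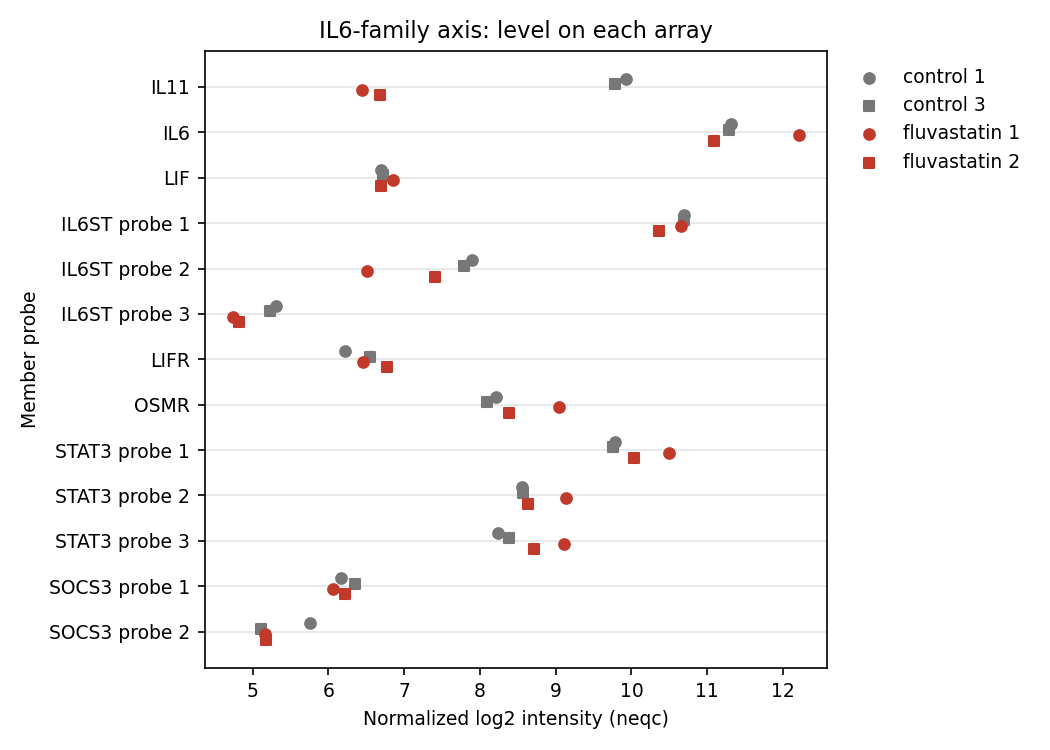
Normalized log2 intensity (horizontal axis) of each of the 13 kept member probes on each of the 4 independent arrays, 1 point per array, with controls in grey and fluvastatin in red. IL11 drops from 9.93 and 9.78 to 6.45 and 6.68, while the fluvastatin arrays of IL6 lie on both sides of the controls; levels of different probes are not comparable with each other.

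Of the 7 members other than IL11 that had a kept probe, 0 passed the threshold of an adjusted p under 0.05 in the limma fit over all probes, where 20.1% of all genes passed. At an unadjusted p under 0.05 the count was 0 of 7 genes, against 40.0% of all genes. Among their single probes, 1 of IL6ST (ILMN_1797861) and 1 of STAT3 (ILMN_2410986) were under it, against 36.0% of all probes kept. At the adjusted threshold 0 of their probes passed, against 16.9% of all probes kept. The IL6ST probe detected in controls alone is left out of these statements. The groups did not overlap for 3 of the 7, IL6ST, OSMR and STAT3, against 69.6% of all genes. The count at the adjusted threshold was 3, all of them higher, without fluvastatin replicate 2 (IL6, OSMR and STAT3), where 17.7% of all genes were called higher. Each fit that leaves out 1 array keeps 1 array in a group, whose spread cannot be measured. No conclusion about the members is therefore drawn from the count in such a fit. Where a gene had several kept probes, the one with the highest mean level stands for it here.

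Among the receptor chains, IL6R was at background. Its 2 probes were detected on 0 of 4 arrays, with detection p from 0.108 to 0.908 and raw intensities of 52.7 to 75.2. They are the member probes outside the detection rule, and the dimmest kept IL6ST probe, detected on 2 arrays, lies just inside it. A level of IL6R was therefore not measurable, and no fold is given.

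IL6ST, the shared signalling chain, had 3 kept probes. The brightest, ILMN_1849013, read 10.70 and 10.70 in controls and 10.65 and 10.37 with fluvastatin (log2 fold change -0.19 ± 0.17, 95% confidence interval -0.61 to 0.24, limma adjusted p = 0.477). Both fluvastatin values were lower, that of replicate 1 by 0.044 from the control mean. The second, ILMN_1797861, read 7.89 and 7.79 in controls and 6.51 and 7.40 with fluvastatin (-0.89 ± 0.30, 95% confidence interval -1.64 to -0.13, limma adjusted p = 0.0991). Without fluvastatin replicate 2 it was at -1.33, and without fluvastatin replicate 1 at -0.44.

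The third IL6ST probe, ILMN_1746604, was detected on both controls (5.30 and 5.22) and on neither fluvastatin array (4.74 and 4.82). After background correction its level in controls was at least 1.32-fold higher. This was computed against the lowest detected signal of each fluvastatin array, or the probe's own signal where that was higher. The bound holds on that scale alone. The ratio of the mean intensities as deposited was 1.06. The log2 fold change was -0.19 in the authors' values and -0.21 without background correction. The probe passed the detection rule through the controls alone and is given without a test. The 2 brighter probes were lower on both fluvastatin arrays, and neither of them passed the threshold. The platform annotation gives the brightest probe another transcript record than the other 2.

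LIFR, the receptor chain for LIF, had log2 intensities of 6.22 and 6.55 in controls and 6.46 and 6.78 with fluvastatin. The groups overlapped, and the log2 fold change was 0.23 ± 0.20 (95% confidence interval -0.27 to 0.73, limma adjusted p = 0.462). OSMR, which pairs with IL6ST to bind oncostatin M, read 8.22 and 8.09 in controls and 9.04 and 8.39 with fluvastatin. Both fluvastatin arrays of OSMR were above both controls, replicate 1 by more. Its log2 fold change was 0.56 ± 0.25 (95% confidence interval -0.05 to 1.17, limma adjusted p = 0.164). OSMR was at 0.89 without fluvastatin replicate 2 and at 0.24 without fluvastatin replicate 1. It passed with median scaling (0.81, limma adjusted p = 0.0363). In that setting every member probe had the same standard error, 0.296, so the p follows the size of the change and not the gene's own spread.

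STAT3, the transcription factor that carries the signal to the nucleus, had 3 kept probes, all higher on both fluvastatin arrays. The brightest, ILMN_2401978, read 9.79 and 9.76 in controls and 10.49 and 10.03 with fluvastatin (log2 fold change 0.49 ± 0.20, 95% confidence interval -0.01 to 0.99, limma adjusted p = 0.145). ILMN_1663618 read 8.55 and 8.57 in controls and 9.13 and 8.63 with fluvastatin (0.32 ± 0.21, limma adjusted p = 0.328). ILMN_2410986 read 8.24 and 8.38 in controls and 9.11 and 8.72 with fluvastatin (0.60 ± 0.19, limma adjusted p = 0.0856).

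For each STAT3 probe fluvastatin replicate 1 was the higher of the treated arrays, and the gap between them was 0.39 to 0.51. None of the 3 passed. Without fluvastatin replicate 2 they were at 0.72, 0.57 and 0.80 in the same order, and without fluvastatin replicate 1 at 0.26, 0.07 and 0.41. ILMN_2410986 passed with the authors' values (0.54, limma adjusted p = 0.0475) and without background correction (0.53, limma adjusted p = 0.0483). It also passed with median scaling (0.84, limma adjusted p = 0.0269), where the p follows the size of the change alone.

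SOCS3, the feedback inhibitor that binds IL6ST and Janus kinases, was dim. Its brighter probe read 6.16 and 6.35 in controls and 6.06 and 6.22 with fluvastatin, with overlapping groups (log2 fold change -0.11 ± 0.17, 95% confidence interval -0.53 to 0.30, limma adjusted p = 0.667). With median scaling the sign turned, to 0.20, where the median of all probes kept stood at 0.19. Its dimmer probe read 5.75 and 5.10 in controls and 5.16 and 5.17 with fluvastatin (-0.26 ± 0.24, limma adjusted p = 0.482), and its controls lay 0.65 apart.

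**Figure D2:**
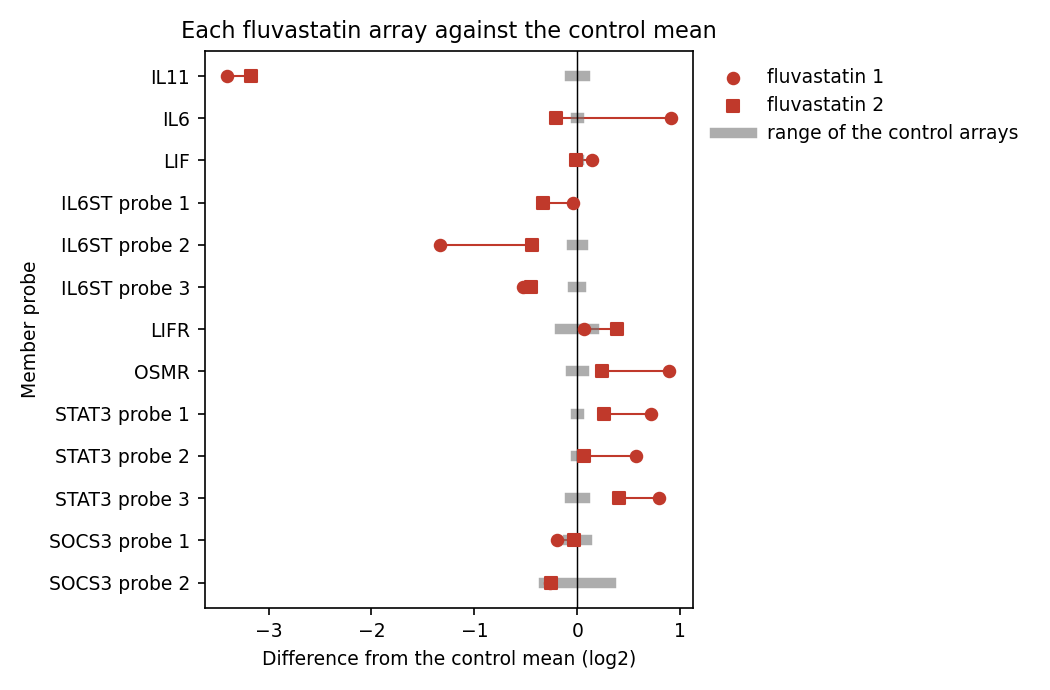
Difference in log2 intensity of each fluvastatin array (circle for replicate 1, square for replicate 2) from the mean of the 2 controls, per member probe, with the range of the controls as a grey bar. IL11 sits at -3.41 and -3.17, whereas the IL6 points lie at 0.91 and -0.21 and every STAT3 point lies above the controls.

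The genes whose pattern over the 4 arrays was most like that of IL11 were found by the Euclidean distance between log2 values centred on each gene's mean. RIMS2, a scaffold protein of synaptic release sites, was nearest (distance 0.15), with 8.52 and 8.37 in controls and 4.88 and 5.13 with fluvastatin. NPPB, the gene of the natriuretic peptide BNP, followed at 0.29, with 7.89 and 8.04 in controls and 4.53 and 5.01 with fluvastatin, where it was detected on 1 of 2 arrays. DMBT1, a secreted scavenger receptor protein, was at 0.42, the ubiquitin ligase gene MARCHF4 at 0.48 and CCN1, a matricellular protein, at 0.64. CCN1 read 12.54 and 12.67 in controls against 8.88 and 8.69 with fluvastatin. None of the other 7 members was near: the closest, IL6ST, was at 3.13 and stood 4234th in this order. The likeness rests on 4 arrays and on the size of the fall.

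**Figure D3:**
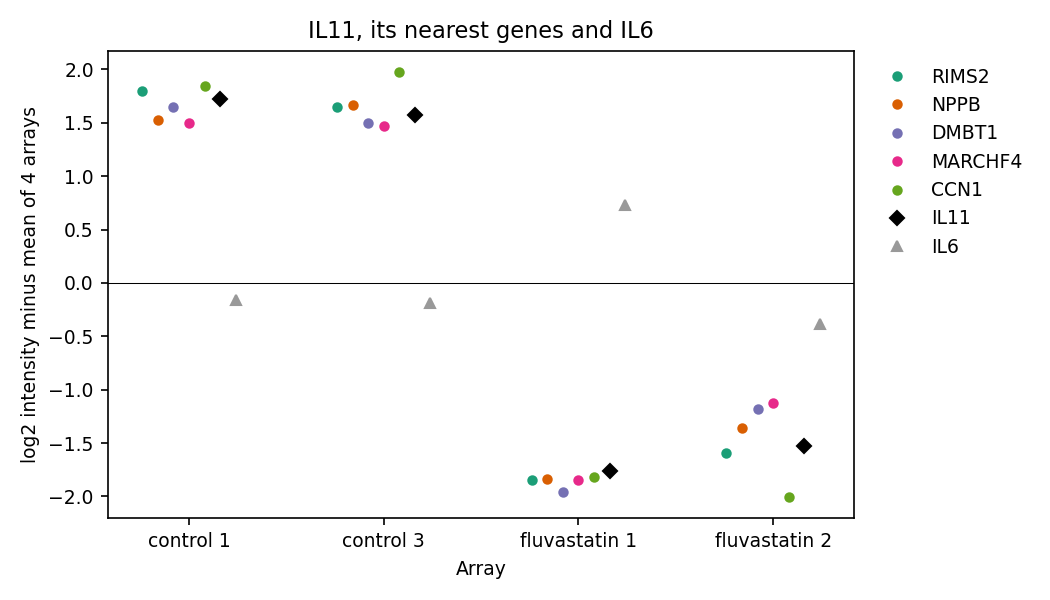
Log2 intensity minus the gene's mean over 4 arrays, per array, for IL11 (diamonds), the 5 genes nearest to it (circles) and IL6 (triangles). IL11 and its 5 neighbours are above 0 on both controls and below 0 on both fluvastatin arrays, and IL6 is above 0 on fluvastatin replicate 1 alone.

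The other genes of the pathway were taken from 7 lists holding 95 genes, of which 72 had a kept probe. The lists were chosen with earlier results of these data known, so their shares are a description and not a test. Of these 72, 13 were higher and 8 lower with fluvastatin, 29.2% in all, against 20.1% of all 12080 genes (10.5% higher and 9.65% lower). Their median log2 fold change was 0.15, against 0.01 for all genes. With median scaling, which moved the median of all probes kept to 0.19, 19 were higher and 7 lower, against 17.3% and 4.88% of all genes. Fits that leave out 1 array keep 1 array in a group, whose spread cannot be measured, so their calls are not counted here. In these fits all 21 log2 fold changes kept their sign, which does not show that the calls hold without each array. With median scaling the call of MYC was lost by the probe that stands for it (limma adjusted p = 0.144). Every member probe had the same standard error in that setting, 0.296, so a p there follows the size of the change. With no filter on dim probes, which adds probes to the adjustment, 16 of the 21 calls stayed, and those of EBI3, ADAM17, GAB2, VEGFA and CSF1 were lost (0.0501, 0.0899, 0.0513, 0.0641 and 0.0841).

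Few other ligands and receptors of the family were detected. Of 11 listed, 3 had a kept probe, and OSM, CNTF, IL27, IL31, CNTFR and IL31RA had probes below the detection rule. IL11RA, the receptor chain of IL11, had no probe with its symbol and was not analysed here. EBI3, a subunit shared by interleukins 27 and 35, rose by 0.99 ± 0.20, from 7.39 and 7.50 to 8.64 and 8.23 (limma adjusted p = 0.028). CTF1, the gene of cardiotrophin 1, was at 0.44 (limma adjusted p = 0.106) and IL27RA, a receptor chain that pairs with IL6ST, at -0.16 (limma adjusted p = 0.742).

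Of the proteases that release the outer part of IL6R from the cell surface, ADAM17 rose by 1.42 ± 0.32, from 7.58 and 7.59 to 9.49 and 8.53 (limma adjusted p = 0.0373). Of its 3 kept probes 2 passed, the lowest at 0.97. ADAM10 was at 0.13 (limma adjusted p = 0.611). The substrate IL6R itself was at background on all 4 arrays.

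Among Janus kinases, other STAT genes and adaptors, 2 of 11 measured genes rose and 0 fell, or 18.2%, against 20.1% of all genes. STAT5A, a transcription factor of prolactin and growth hormone signalling, rose by 0.96 ± 0.18 (limma adjusted p = 0.0244), and GAB2, a docking protein that recruits phosphatidylinositol 3-kinase, rose by 0.75 ± 0.17 (limma adjusted p = 0.0383). The kinases JAK1 (0.24), JAK2 (0.30) and TYK2 (0.37) did not pass, nor did the docking protein gene GAB1 (-0.37). JAK2 was named after its value was seen. The list median of 0.10 was close to the 0.01 of all genes.

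Of 11 measured negative regulators, 1 rose and 0 fell, or 9.09%, against 20.1% of all genes. PTPN6, the phosphatase SHP-1 that removes phosphate from Janus kinases, rose by 1.20 ± 0.19, from 5.25 and 4.87 to 6.22 and 6.29, and was detected on 1 of the 2 controls (limma adjusted p = 0.017). In the authors' values PTPN6 was at 0.52. The other SOCS genes did not pass: SOCS1 was at 0.66 (limma adjusted p = 0.123), SOCS5 at -0.47 (limma adjusted p = 0.0942) and SOCS2 at -0.77 (limma adjusted p = 0.265). For SOCS2 the fluvastatin arrays differed, 5.76 in replicate 1 and 7.16 in replicate 2, against 7.31 and 7.16 in controls. PTPN1, another phosphatase, was at -0.38 (limma adjusted p = 0.136).

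Genes known as STAT3 targets moved in both directions: 5 of 23 measured rose, 3 fell and 15 did not pass. The share called was 34.8%, against 20.1% of all genes. Their median was 0.42, but many of them answer to other factors too. SERPINA3, the acute phase protein antichymotrypsin, was detected on both fluvastatin arrays and on neither control, so it passed the detection rule through the fluvastatin arrays alone. It is counted among the 5, but its p is not given here. Its raw intensities were 76.3 and 76.2 in controls and 190.7 and 167.0 with fluvastatin. After background correction it was at least 3.60-fold higher, while the log2 fold change was 0.88 in the authors' values and 0.99 without background correction. The kinase gene PIM1 rose by 1.54 ± 0.20 and CEBPD, a transcription factor of the acute phase response, by 1.06 ± 0.19. In the other direction CCND1, cyclin D1, fell by 1.68 ± 0.22 and BCL2L1, whose product BCL-XL opposes apoptosis, fell by 1.28 ± 0.16. The remaining calls, named after their values were seen, were CEBPB (0.87), VEGFA (0.90) and MYC (-0.77). The second kept probe of MYC was at -1.35 (limma adjusted p = 0.0154). The acute phase genes LBP, HP, FGB and CRP had probes below the detection rule.

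Genes of AP-1 and of transforming growth factor beta signalling, which act on the IL11 promoter, were mixed as well, with 2 of 15 higher and 2 lower. The share called was 26.7%, against 20.1% of all genes, and the median was 0.0033. FOSL1, the AP-1 subunit FRA-1, fell by 1.92 ± 0.23, from 10.22 and 10.21 to 8.59 and 7.99 (limma adjusted p = 0.011). The subunit gene JUND rose by 0.94 ± 0.16, from 12.56 and 12.37 to 13.35 and 13.47 (limma adjusted p = 0.0213). JUN, JUNB, FOSL2 and FOSB did not pass, at 0.50, 0.56, -0.13 and -0.06.

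TGFB2, a ligand of that pathway, fell by 1.57 ± 0.24, from 8.69 and 8.42 to 7.26 and 6.71 (limma adjusted p = 0.0155). RUNX2, a transcription factor of bone-forming cells, rose by 1.32 ± 0.23, but its second kept probe was at 0.34 and did not pass. SMAD3 was at 0.54 (limma adjusted p = 0.219) and GLI2 at -0.41 (limma adjusted p = 0.131). JUN, FOSL2, FOSB, SMAD3 and GLI2 were named after their values were seen. The 2 AP-1 subunits that passed thus moved in opposite directions, and the probe of FOS was below the detection rule.

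Secreted and receptor genes of osteolytic bone metastasis, the setting in which IL11 is best known in this line, had 3 of 8 measured genes lower and 1 higher. The share called was 50%, against 20.1% of all genes, in a list chosen with earlier results known, and the median was -0.61. CCN2, a matricellular growth factor, fell by 4.92 ± 0.16, from 12.21 and 12.22 to 7.40 and 7.18 (limma adjusted p = 0.00346). FST, follistatin, which binds activin, fell by 2.65 ± 0.35 (limma adjusted p = 0.0132). TNFRSF11B, osteoprotegerin, which restrains osteoclasts as a decoy for RANK ligand, fell by 1.84 ± 0.25, from 6.76 and 6.77 to 5.26 and 4.59, where 1 of 2 arrays detected it (limma adjusted p = 0.0134). In the authors' values TNFRSF11B was at -0.88. CSF1, a growth factor of macrophages and osteoclast precursors, rose by 1.17 ± 0.26 (limma adjusted p = 0.0382), but 1 of its 3 kept probes passed.

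The other genes of that list did not pass by the probe that stands for them. The brighter probe of CXCL8 was at 0.68 (limma adjusted p = 0.156), whereas its second kept probe, ILMN_1666733, rose by 1.43, from 10.08 and 10.13 to 12.00 and 11.06 (limma adjusted p = 0.0362). The chemokine receptor gene CXCR4 had 6.22 and 5.94 in controls, 4.38 in fluvastatin replicate 1 and 5.96 in replicate 2. MMP1 was at 0.47 and JAG1 at -0.30. MMP1, JAG1 and CXCR4 were named after their values were seen. Probes of SPP1, TNFSF11, ADAMTS1, FGF5 and PTGS2 were below the detection rule, and PTHLH and CSF2 were not analysed here.

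**Figure D4:**
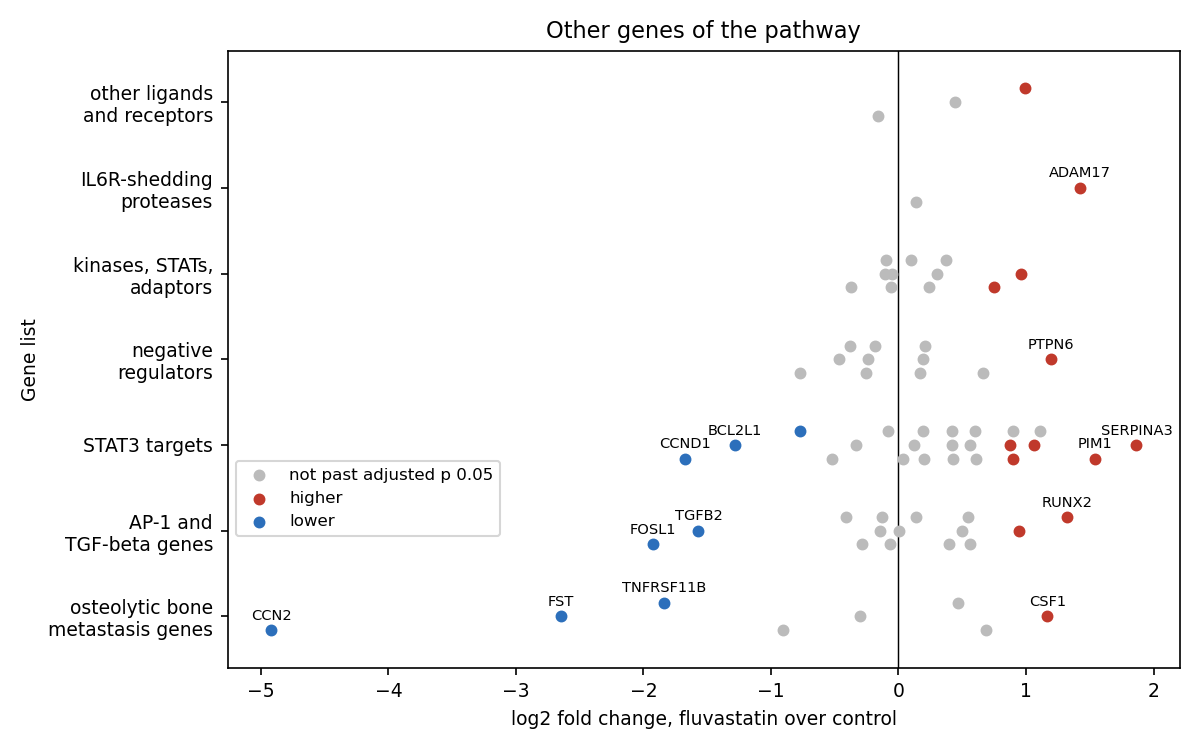
Log2 fold change (fluvastatin over control) of each measured gene in the 7 lists, 1 point per gene and list, coloured where the limma adjusted p was under 0.05. Higher and lower genes stand in the STAT3 target, AP-1 and bone metastasis lists, and the largest falls are CCN2 at -4.92 and FST at -2.65.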

How the data were processed

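Biotinylated cRNA was made from total RNA and read on Illumina bead arrays, per the labels. The deposited raw table gives 1 intensity and 1 detection p-value per probe and sample, per the file headers. The authors' second table holds log2 values whose columns share their distribution (each median 6.23), and its method is not given in the sources used here. Per the submitters' processing notes, R 3.1.0 was among the tools. All per-sample columns were mapped (0 unused).

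Intensities of the 4 independent arrays were corrected and normalized by the neqc function (limma 3.58.1, R 4.3.3: normexp background from detection p, offset of 16, quantile normalization, log2). Groups were compared by limma (lmFit, eBayes, two-sided; 2 residual and 3.72 prior degrees of freedom), with Benjamini-Hochberg adjustment over 21986 probes. A single-value permutation test of 2 against 2 arrays cannot go below 0.333 and was not used. The number of arrays limits precision. The design left out control replicate 2, whose identity with the mean was checked to a tolerance of 1e-06.

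Arrays detected 20295 to 22154 probes, with median intensities of 72.7 to 81.7. Replicates correlated at r = 0.994 (controls) and 0.982 (fluvastatin) across probes. Symbols came from the platform annotation, checked by gene identifier against RefSeq (0 changed): 30113 probes had 1 symbol, 8 several and 17110 none. Members and lists were chosen with earlier results of these data known. Named genes were all members, up to 5 genes of smallest p per list and the 5 genes nearest to IL11. The steps were tested on simulated data. Alternatives were the authors' values, no background correction, an offset of 50, median scaling, no detection filter, a detection p under 0.01, all 5 columns, the mean of a gene's probes, and leaving out each array.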

Additional observations from a re-analysis of the deposited data

How the results depend on the processing

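The fall of IL11 kept its direction in all 11 other settings, with log2 fold changes of -3.41 to -2.67; it was -2.74 without background correction, -2.90 with an offset of 50 and -3.04 with median scaling. The count of probes past the threshold was 3722 (51.0% higher). It was 8927 with all 5 columns, where a computed mean counts as a control sample, and 490 to 6980 leaving out 1 array (490 without control replicate 1, 534 without control replicate 3, 6980 without fluvastatin replicate 2). Median scaling gave 3353 higher and 961 lower (77.7% higher). Of the 7 other members, 0 passed, against 20.1% of all genes. With median scaling 1 passed (OSMR, higher), against 17.3% of all genes called higher and 4.88% lower. With all 5 columns 1 passed (STAT3, higher), where 8927 of 21986 probes passed. With median scaling every member probe had the same standard error, 0.296, so a p there follows the size of the change. The wider pathway count of 21 became 35 with all 5 columns and 7 to 30 leaving out 1 array. Apart from these and the arrays left out, settings gave 16 to 27. The sign turned for IL6 (-0.21 to 0.91 leaving out 1 array), LIF (-0.016 to 0.15 leaving out 1 array), the brighter SOCS3 probe (0.20 with median scaling) and the dimmer one (-0.59 to 0.062 leaving out 1 array). Causes beyond the number of arrays were not tested. No paired analysis was possible because the independent arrays of the 2 groups share 1 replicate number. Probes near background have changes whose size depends on the background correction, such as those of SOCS3, the dimmest of IL6ST and SERPINA3. TNFRSF11B was at -0.88 in the authors' values and -0.99 without background correction, and PTPN6 at 0.52 and 0.60.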
